A study of Homo sapiens with 15 samples.

Results

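The genes described here are 36 protein-coding genes that lost reads when the transcription factor ERG was silenced in Reh leukaemia cells and whose ratio of means stayed inside a set limit when wild-type ETV6 was put back into Reh cells. They were picked out of 33367 genes by a rule on group means of CPM (the reads of a gene scaled to the reads of all named genes in the library). The genes were chosen by these values: a gene had to average at least 2 CPM with the control guide. Its log2 ratio of means, taken after adding 0.5 CPM to each mean, had to be at most -0.8 with the ERG guide against the control guide. The same ratio for wild-type ETV6 against tagBFP had to be under 0.5 in size. ERG and 8 other genes were left out beforehand (CIITA, CD74, HLA-DRA, EPOR, TSPAN9, RASSF5, DUSP6 and BCL2). Of the 11070 protein-coding genes that reached the minimum, 115 met the ERG threshold. With wild-type ETV6, 36 of them (31.3%) stayed within 0.5, 56 were lower and 23, ETV6 itself among them, were higher. Within 0.5 lay 92.4% of all 11070 genes.

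Reh is a leukaemia line of the B lineage in which ETV6::RUNX1 is expressed and no intact ETV6 is left. RNA was sequenced in 15 libraries, 3 in each of 5 groups. In sgERG, cells with a doxycycline-inducible dCas9-KRAB, a repressor joined to inactive Cas9, carried a guide against the ERG promoter. In sgCtrl, the same cells carried a non-targeting guide. Both had been sorted for the fluorescent reporter of the guide vector and given 500 ng/ml doxycycline for 72 h. In ETV6_R399C and ETV6_WT, Reh cells carried an inducible vector for ETV6, with a V5 tag and either with or without the R399C change, and in tagBFP the vector held a V5-tagged fluorescent protein instead. These 3 groups had 500 ng/ml doxycycline for 48 h. All groups are transduced populations of a single line, and nothing in the labels says that the 3 libraries of a group came from separate cultures, so p-values measure only the spread between these libraries.

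ERG and ETV6 belong to the ETS family, whose DNA-binding domain recognises a GGAA core. ERG mostly activates genes and is known for its part in blood stem cells, megakaryocytes and blood vessels. ETV6 is a repressor that can bind the same cores, and R399C changes its DNA-binding domain. The comparison of the silenced and the control guide thus asks which genes need ERG, and the ETV6 comparisons ask which genes respond when the lost repressor returns.

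ERG itself had 105.4, 110.4 and 101.5 CPM in the 3 sgERG libraries, against 526.8, 522.6 and 514.1 CPM in sgCtrl, and 301 CPM on average in tagBFP. ETV6 averaged 378 CPM in ETV6_R399C, 480 CPM in ETV6_WT and 5.85 CPM in tagBFP, so the mutant transgene was read less than the wild type, with no overlap between the libraries. The 12 B-cell precursor markers summed to 4729 to 4880 TPM (a level that allows for transcript length) in sgERG and 5021 to 5127 TPM in sgCtrl. They summed to 5264 to 5332 TPM in ETV6_R399C, 5314 to 5354 TPM in ETV6_WT and 3946 to 4078 TPM in tagBFP, and VPREB1 was at 0 in all libraries. The 6 megakaryocyte markers summed to 9.10 to 11.3 TPM in sgERG and 6.38 to 9.04 TPM in sgCtrl, and to 2.50 to 4.46 TPM in the ETV6 experiment, with PF4 at 0. The 6 stromal markers summed to 45.8 to 47.4 TPM in sgERG, 34.2 to 40.7 TPM in sgCtrl and 13.0 to 19.9 TPM in the ETV6 experiment, with COL3A1 and LUM at 0 and PDGFRB the highest. B-cell precursor, megakaryocyte and stromal sums thus differed between sgERG and sgCtrl without overlap, and their part in the values of the set was not tested. Of the 6 megakaryocyte markers, 5 stayed under 1 CPM in every library, and ITGA2B was the highest. Of the 6 stromal markers, 4 stayed under 1 CPM in every library. These sums thus rest on few genes. The summed markers of T cells, erythroid cells and endothelium stayed at or under 1.67 TPM. Library totals ran over 22040338 to 52481351 reads. The third sgERG library stood somewhat apart: set against the other sgERG libraries it gave a chi-square of 14.7 and 12.9 for each degree of freedom, and those gave 6.94 against each other. Without it, 36 genes met the rule again and 32 of the present set were among them. DOCK3, KCNJ16, PTPN22 and ZNF366 dropped out. The third tagBFP library also stood apart from the other tagBFP libraries, with 6.5 and 5.98, and those gave 3.16 against each other. Mitochondrial genes held 1.419% of its reads, the highest share of that experiment. Without it 39 genes met the rule, all 36 of the present set among them.

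Because both comparisons were used to choose the genes, their values in sgERG against sgCtrl and in ETV6_WT against tagBFP are a description. In 34 of the 36 genes every sgERG library was below every sgCtrl library, which held for 14.7% of all genes tested. The edgeR test called 33 of the 35 genes it covered lower, against 7.74% of all genes, all 33 by at least 0.5 in log2, which held for 4.88% of all genes in either direction. None was higher (6.89% of all genes were), and 14.6% of all genes were called in either direction. In ETV6_WT against tagBFP it called 4 of 31 higher and 4 lower, against 17.6% and 18.9% of all genes, or 36.5% together. None of these 8 reached 0.5 in log2, which 7.8% of all genes did. The limit of the rule is thus not an absence of change: SCN4A averaged 219 CPM in ETV6_WT and 168 CPM in tagBFP. In members with few reads the added 0.5 CPM shrinks the ratio. FGFBP2 averaged 0.140 CPM in ETV6_WT and 0.353 CPM in tagBFP, with no overlap between the libraries. UNC13A averaged 0.0321 and 0.137 CPM in the same groups, also without overlap, and OTOG, DOCK3 and BPTF were likewise below FGFBP2 in both. With 0.1 CPM added in place of 0.5 CPM, FGFBP2, UNC13A and DOCK3 did not meet the rule. Over the 36 genes the median log2 ratio was -1.002 in sgERG against sgCtrl, beside -1.21 in the 56 genes that were lower with wild-type ETV6 and -0.97 in the 23 that were higher.

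**Figure D1:**
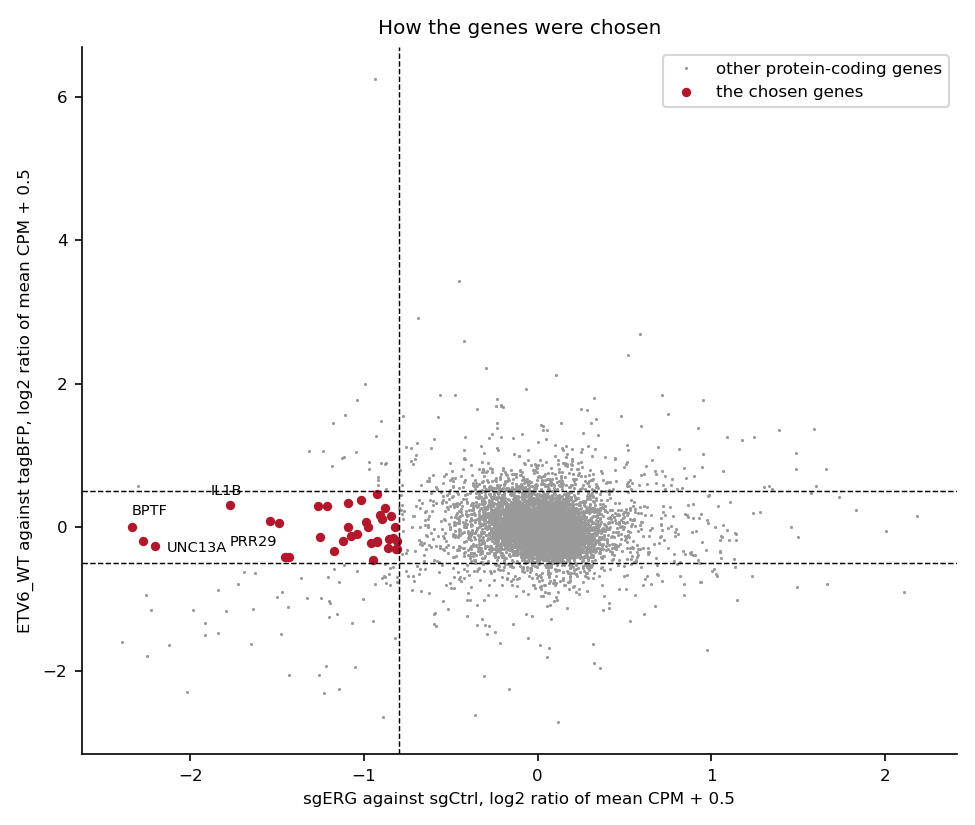
Each point is a protein-coding gene with at least 2 CPM in sgCtrl, 11070 in all. The x axis is the log2 ratio of mean CPM + 0.5 of sgERG to sgCtrl, the y axis that of ETV6_WT to tagBFP, and dashed lines mark -0.8 and ±0.5. The 36 chosen genes (red) fill the box left of -0.8 between -0.5 and 0.5, and the uppermost grey point is ETV6.

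The promoter sequences of 4 of the genes are shown because the ETS core is what ERG and ETV6 have in common. ATP2B4 and CD200 hold the most cores among the genes with a single promoter in the table, and IL1B and CTSG are genes whose reads differed between the ETV6 forms. Each line gives the 250 bases before the transcription start in the RefSeq promoter table (GRCh38.p14), read 5′ to 3′ on the strand of the gene, with GGAA and its reverse complement TTCC in capitals.
ATP2B4 (chr1:203626582-203626831, forward strand): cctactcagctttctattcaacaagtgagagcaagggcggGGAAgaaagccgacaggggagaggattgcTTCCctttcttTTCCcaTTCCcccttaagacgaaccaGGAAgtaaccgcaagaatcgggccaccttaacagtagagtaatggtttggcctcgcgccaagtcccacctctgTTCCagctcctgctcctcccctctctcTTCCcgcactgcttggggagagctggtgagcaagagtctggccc
CD200 (chr3:112332906-112333155, forward strand): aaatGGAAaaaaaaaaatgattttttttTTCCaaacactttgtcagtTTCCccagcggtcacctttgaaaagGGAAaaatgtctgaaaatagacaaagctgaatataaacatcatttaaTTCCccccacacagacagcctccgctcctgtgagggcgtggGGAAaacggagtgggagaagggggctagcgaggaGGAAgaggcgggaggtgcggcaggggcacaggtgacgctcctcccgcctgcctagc
IL1B (chr2:112836780-112837029, reverse strand): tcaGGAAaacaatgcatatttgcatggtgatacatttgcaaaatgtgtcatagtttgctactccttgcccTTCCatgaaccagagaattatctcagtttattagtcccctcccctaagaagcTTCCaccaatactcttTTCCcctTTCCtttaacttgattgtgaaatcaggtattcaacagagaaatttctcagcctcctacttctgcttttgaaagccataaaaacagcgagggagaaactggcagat
CTSG (chr14:24576251-24576500, reverse strand): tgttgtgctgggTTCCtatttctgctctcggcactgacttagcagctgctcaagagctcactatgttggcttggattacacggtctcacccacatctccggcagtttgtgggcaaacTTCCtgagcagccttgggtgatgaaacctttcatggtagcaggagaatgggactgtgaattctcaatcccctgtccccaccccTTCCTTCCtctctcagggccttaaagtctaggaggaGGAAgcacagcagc

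ATP2B4 and CD200 hold 7 cores each in these stretches, IL1B and CTSG 5 each, and CTSG has a pair of cores in tandem. Over windows of 300 bases, which reach 50 bases past the start, 24 of the 36 genes had 38 promoters in the table. GGAA or TTCC stood in 34 of the 38 (89.5%), beside 95.5% of all 35116 promoters. The tandem GGAAGGAA or TTCCTTCC, which includes the single core, stood in 4 (10.5%), beside 3.7% of all, and 3 tandem cores in none, beside 0.1% of all. Both CAV1 promoters among those 4 overlap each other, and PTPRM and CTSG have the others. The longer ETS site CCGGAAGT or ACTTCCGG was in none of the 38, beside 4.1% of all, and TGTGGT or ACCACA, a core read by RUNX factors, was in 9 (23.7%), beside 13.1% of all. The letters AGATAA, which GATA factors read, were in 7.9% beside 10.3%. The E box CAGCTG was in 18.4% beside 17.9%. These are matches of letters in a window and not binding sites.

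Among receptors, FGFR1, a receptor tyrosine kinase for fibroblast growth factors, was read most. It had 81.7, 83.3 and 89.2 CPM in the sgERG libraries, against 185, 183 and 185 CPM in the sgCtrl libraries, and thus stood at 45.9% of its sgCtrl mean. In the other experiment it had 214, 215 and 215 CPM in ETV6_R399C, 170, 175 and 176 CPM in ETV6_WT and 200, 200 and 193 CPM in tagBFP. The ETV6_R399C libraries were above all others of that experiment. FGFR1 was higher in ETV6_R399C than in ETV6_WT by a log2 of 0.27 ± 0.02 (standard error; edgeR adjusted p = 1.7e-05) and than in tagBFP by 0.10 ± 0.02 (edgeR adjusted p = 0.0071).

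INSRR, the insulin receptor-related kinase that senses alkaline surroundings, had 3.39, 3.79 and 2.66 CPM in sgERG, against 8.72, 7.08 and 8.25 CPM in sgCtrl. It averaged 1.44 CPM in ETV6_R399C, 1.06 CPM in ETV6_WT and 1.47 CPM in tagBFP, and neither contrast with ETV6_R399C passed. The strand setting of the counting is not given, and whether its values hold reads of the opposite strand was not tested.

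NPR1 makes cyclic GMP when atrial natriuretic peptide binds. It had 19.8, 20.7 and 19.1 CPM in sgERG, against 36.5, 36.1 and 36.9 CPM in sgCtrl, a narrow spread in both groups. It averaged 28.4 CPM in ETV6_R399C, 25.0 CPM in ETV6_WT and 30.7 CPM in tagBFP. The difference of ETV6_R399C to tagBFP, -0.14 ± 0.05 on the log2 scale, passed (edgeR adjusted p = 0.038). The call was lost in 9 of 12 alternative settings, with adjusted p of 0.033 to 0.30 over all 12, that of DESeq2 included. Among the losses were the fits without ETV6_R399C replicate 1 (log2 -0.08) or 2 (-0.15) and without tagBFP replicate 1 or 3 (both -0.13).

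The receptor phosphatase PTPRM, which joins neighbouring cells through its own outer part, had 13.4, 16.3 and 12.5 CPM in sgERG, against 28.3, 27.5 and 27.8 CPM in sgCtrl. Its group means of 7.94 to 9.37 CPM in the ETV6 experiment did not differ past the threshold in either ETV6_R399C contrast. PTPN22, a phosphatase that restrains antigen-receptor signalling, is close to the ERG threshold with a log2 ratio of -0.81. It had 8.52, 8.28 and 7.44 CPM in sgERG, against 14.4, 15.1 and 14.2 CPM in sgCtrl. With ETV6_R399C it fell to 6.96 CPM on average, against 8.63 CPM in tagBFP (log2 -0.33 ± 0.09, edgeR adjusted p = 0.011), and that call was lost with DESeq2 and with an offset for transcript length.

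Ion transport is represented by 4 genes. ATP2B4, a calcium pump of the plasma membrane (chr1:203626561-203744081, forward strand, GENCODE 29 on GRCh38), had 164, 162 and 149 CPM in sgERG, against 388, 384 and 372 CPM in sgCtrl. One coding transcript of 8968 bases took 95.5% of its sgCtrl reads. In ETV6_R399C it had 209, 205 and 205 CPM, between the 222, 221 and 225 CPM of ETV6_WT and the 184, 192 and 171 CPM of tagBFP. The log2 difference was -0.14 ± 0.03 to ETV6_WT (edgeR adjusted p = 0.011) and 0.16 ± 0.03 to tagBFP (edgeR adjusted p = 0.0027), so ATP2B4 was called in both contrasts, in opposite directions. The difference to ETV6_WT no longer passed without ETV6_WT replicate 1 (-0.12, edgeR adjusted p = 0.055) or with an offset for transcript length.

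SCN4A, the pore-forming sodium channel subunit of skeletal muscle, was among the 5 members with an sgCtrl mean of at least 100 CPM. It had 112.6, 107.96 and 111.2 CPM in sgERG, against 231, 211 and 231 CPM in sgCtrl. Its levels were 274, 262 and 240 CPM in ETV6_R399C, 209, 220 and 227 CPM in ETV6_WT and 171, 170 and 162 CPM in tagBFP, 3 groups without overlap. SCN4A was 0.60 ± 0.04 higher in ETV6_R399C than in tagBFP on the log2 scale (edgeR adjusted p = 1.0e-06) and 0.21 ± 0.04 higher than in ETV6_WT (edgeR adjusted p = 0.0051). The first call was kept in all 12 alternatives.

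KCNJ16, an inward-rectifier potassium channel, had 10.5, 9.88 and 7.98 CPM in sgERG, against 19.3, 17.4 and 17.4 CPM in sgCtrl. It averaged 20.5 CPM in ETV6_R399C, 18.2 CPM in ETV6_WT and 16.7 CPM in tagBFP and passed against tagBFP (log2 0.26 ± 0.05, edgeR adjusted p = 0.0011). SLC9A7, a sodium-proton exchanger of the Golgi, had 25.9, 26.7 and 25.0 CPM in sgERG, against 45.8, 48.3 and 47.6 CPM in sgCtrl. It did not pass in either ETV6_R399C contrast, with group means of 12.8 to 14.8 CPM.

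The immune genes were of low to middle level. IL1B, the inflammatory cytokine interleukin-1 beta (chr2:112829751-112836903, reverse strand), had 0.75, 0.693 and 0.606 CPM in sgERG, against 3.90, 3.203 and 3.51 CPM in sgCtrl, which is 19.3% of its sgCtrl mean. In the ETV6 experiment it had 5.91, 6.28 and 4.81 CPM in ETV6_R399C, 2.92, 2.71 and 3.31 CPM in ETV6_WT and 2.41, 2.30 and 2.25 CPM in tagBFP. Each of these groups stood clear of the others. IL1B rose by 1.26 ± 0.14 on the log2 scale in ETV6_R399C against tagBFP (edgeR adjusted p = 3.1e-05), the largest rise of the set in that contrast, and was 0.89 ± 0.14 above ETV6_WT (edgeR adjusted p = 0.0010). With an offset for transcript length both calls were lost, and the values ran over 0.76 to 1.36 and 0.72 to 0.99 in the 12 alternatives.

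CTSG encodes cathepsin G, a protease of neutrophil granules. It had 7.83, 8.76 and 9.23 CPM in sgERG, against 16.9, 16.9 and 16.5 CPM in sgCtrl. In the ETV6 experiment it was far lower, with 3.15, 3.38 and 2.69 CPM in ETV6_R399C, 1.67, 1.57 and 2.03 CPM in ETV6_WT and 1.87, 2.34 and 2.08 CPM in tagBFP. The ETV6_R399C libraries were above those of both other groups. CTSG was 0.77 ± 0.17 higher on the log2 scale than in ETV6_WT (edgeR adjusted p = 0.0089), a call kept in 12 of 12 alternatives, and 0.53 ± 0.17 higher than in tagBFP (edgeR adjusted p = 0.026), a call lost in 6 of 12. It was lost without ETV6_R399C replicate 1 (0.53) or 2 (0.46) and without tagBFP replicate 1 (0.45) or 3 (0.53).

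Monocyte and granulocyte markers summed to 14.5 to 17.3 TPM in ETV6_R399C, 19.7 to 23.8 TPM in ETV6_WT and 12.04 to 12.8 TPM in tagBFP, and to 5.29 to 6.31 TPM in sgERG, against 5.70 to 6.61 TPM in sgCtrl. Of the 7 markers, 5 stayed under 1 CPM in every library, S100A8, S100A9 and ELANE were at 0 in all, and CSF1R was the highest. The relation of these markers to the values of IL1B and CTSG was not tested.

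CD200, a surface glycoprotein that signals to myeloid cells, had 15.6, 16.7 and 15.2 CPM in sgERG, against 30.9, 33.2 and 31.5 CPM in sgCtrl. It was among the steadiest genes of the set in the ETV6 experiment, with means of 36.5 CPM in ETV6_R399C, 36.4 CPM in ETV6_WT and 34.5 CPM in tagBFP. Its log2 difference was -0.03 ± 0.04 between ETV6_R399C and ETV6_WT and 0.06 ± 0.04 between ETV6_R399C and tagBFP (edgeR adjusted p = 0.67 and 0.32). BCL3, a nuclear partner of NF-kB proteins, had 19.8, 20.9 and 22.9 CPM in sgERG, against 46.5, 44.0 and 41.7 CPM in sgCtrl. It had 32.4, 30.6 and 31.7 CPM in ETV6_R399C, 22.3, 25.3 and 23.9 CPM in ETV6_WT and 26.9, 24.2 and 25.8 CPM in tagBFP. BCL3 thus stood higher with ETV6_R399C than with ETV6_WT (log2 0.37 ± 0.06, edgeR adjusted p = 9.8e-04) and than with tagBFP (0.28 ± 0.06, edgeR adjusted p = 0.0021).

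**Figure D2:**
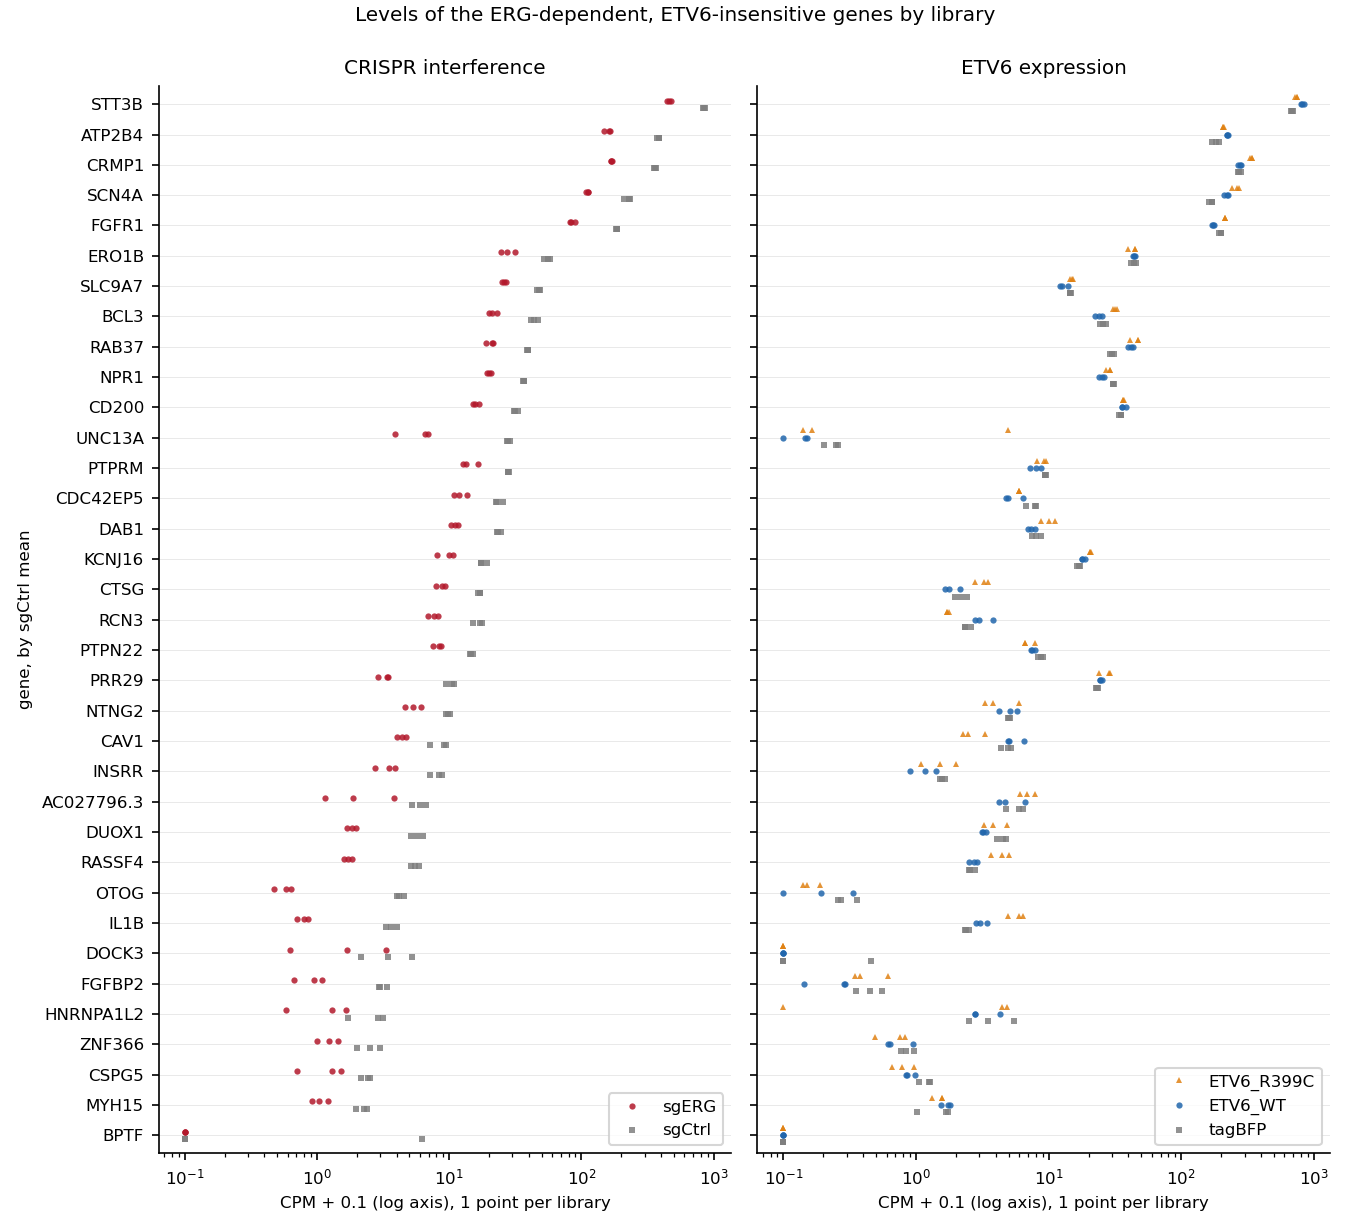
Levels of 35 of the 36 genes, ordered by their sgCtrl mean, as CPM + 0.1 on a log axis, with 1 point for each library. The left panel holds sgERG and sgCtrl and the right panel ETV6_R399C, ETV6_WT and tagBFP. In 33 of these genes the sgERG points lie left of all sgCtrl points, and UNC13A, OTOG, FGFBP2, DOCK3 and BPTF lie at the foot of the scale in the right panel apart from 1 UNC13A library.

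Genes best known from neurons made up a further group. CRMP1, which carries signals of the guidance cue semaphorin, had 167, 168 and 171 CPM in sgERG, against 358, 368 and 355 CPM in sgCtrl. It had 341, 343 and 328 CPM in ETV6_R399C, 278, 270 and 280 CPM in ETV6_WT and 283, 274 and 269 CPM in tagBFP. Wild-type ETV6 and tagBFP overlapped and ETV6_R399C stood above both, by 0.26 ± 0.03 and 0.27 ± 0.03 on the log2 scale (edgeR adjusted p = 5.9e-05 and 1.4e-05).

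DAB1, the adaptor that relays reelin signals, had 11.5, 10.99 and 10.2 CPM in sgERG, against 23.3, 24.4 and 22.9 CPM in sgCtrl. Its means were 9.92 CPM in ETV6_R399C, 7.32 CPM in ETV6_WT and 7.98 CPM in tagBFP. It was 0.40 ± 0.10 higher in ETV6_R399C than in ETV6_WT on the log2 scale (edgeR adjusted p = 0.015), and the call was lost in 3 of 12 alternatives, among them those without ETV6_R399C replicate 2 (0.32) or ETV6_WT replicate 1 (0.38). NTNG2, a netrin anchored to the membrane, had 4.51, 5.24 and 6.03 CPM in sgERG, against 9.64, 9.36 and 9.99 CPM in sgCtrl. CSPG5, a membrane proteoglycan, averaged 1.07 CPM in sgERG and 2.25 CPM in sgCtrl. Neither NTNG2 nor CSPG5 passed in the ETV6_R399C contrasts.

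UNC13A, which readies synaptic vesicles for release (chr19:17601328-17688365, reverse strand), had 3.80, 6.41 and 6.77 CPM in sgERG, against 27.2, 28.8 and 27.7 CPM in sgCtrl. One coding transcript of 9838 bases held 97.4% of the sgCtrl reads. In the ETV6 experiment the gene had 1, 98 and 2 reads in the ETV6_R399C libraries, 1, 0 and 1 reads in ETV6_WT and 5, 4 and 2 reads in tagBFP. The gene was thus hardly read in 8 of these 9 libraries and had too few reads for a test. ETV6_R399C replicate 2 was the exception, with 94.2 of its 98 reads on the transcript of 9838 bases. The log2 ratio of means of ETV6_R399C to tagBFP, 1.75, rested on it and was -0.21 without it. UNC13A met the ETV6 part of the rule at means of 0.0321 CPM in ETV6_WT and 0.137 CPM in tagBFP.

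Small G proteins and their partners were represented by RASSF4, RAB37, CDC42EP5 and DOCK3. RASSF4, which binds active Ras, had 1.73, 1.51 and 1.63 CPM in sgERG, against 5.05, 5.85 and 5.44 CPM in sgCtrl. In the ETV6 experiment it had 4.36, 3.55 and 4.97 CPM in ETV6_R399C, 2.42, 2.63 and 2.80 CPM in ETV6_WT and 2.66, 2.43 and 2.43 CPM in tagBFP. The ETV6_R399C libraries lay above all 6 others. The log2 difference was 0.69 ± 0.15 to ETV6_WT (edgeR adjusted p = 0.0091) and 0.76 ± 0.15 to tagBFP (edgeR adjusted p = 0.0021), and each of these calls was lost with the offset for transcript length alone of 12 alternatives. A transcript of 4350 bases annotated as retaining an intron carried 68.5% of the RASSF4 reads in tagBFP and 54.3% in sgCtrl, and the coding form of 3641 bases carried 14.1% in tagBFP and 32.0% in sgCtrl.

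RAB37, a GTPase of secretory vesicles, had 21.2, 18.9 and 21.1 CPM in sgERG, against 39.4, 39.3 and 38.8 CPM in sgCtrl. It had 46.8, 47.3 and 41.2 CPM in ETV6_R399C, 39.9, 41.4 and 42.9 CPM in ETV6_WT and 31.1, 30.0 and 28.9 CPM in tagBFP. Both ETV6 forms stood above tagBFP and overlapped each other. The rise in ETV6_R399C against tagBFP was 0.56 ± 0.05 on the log2 scale (edgeR adjusted p = 8.9e-06). For ETV6_WT the ratio used by the rule was 0.46, the member nearest to the limit of 0.5 on the higher side.

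CDC42EP5, an effector of the G protein CDC42, had 11.7, 10.8 and 13.4 CPM in sgERG, against 23.1, 25.2 and 22.4 CPM in sgCtrl. It was lower with ETV6_R399C than with tagBFP (5.87 against 7.44 CPM on average, log2 -0.37 ± 0.13, edgeR adjusted p = 0.037), and 6 of 12 alternatives lost this call. The log2 was -0.34, -0.36 and -0.38 without ETV6_R399C replicate 1, 2 and 3, and -0.34 and -0.31 without tagBFP replicate 1 and 3, none of which passed. DOCK3, which activates Rac, had 0.526, 3.21 and 1.59 CPM in sgERG, against 5.12, 2.05 and 3.34 CPM in sgCtrl. The DOCK3 groups overlapped, and the edgeR adjusted p was 0.21. All ETV6_R399C and ETV6_WT libraries had 0 DOCK3 reads.

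Genes of the secretory route held the highest member. STT3B, a catalytic subunit of the enzyme that attaches N-linked sugars, had the top level per length, 353 TPM in sgCtrl. CRMP1 (169 TPM), FGFR1 (116 TPM), ATP2B4 (58.9 TPM) and CDC42EP5 (57.8 TPM) followed. STT3B had 463, 472 and 447 CPM in sgERG, against 845, 833 and 863 CPM in sgCtrl. It had 725, 748 and 748 CPM in ETV6_R399C, 803, 842 and 812 CPM in ETV6_WT and 691, 670 and 681 CPM in tagBFP, again with no overlap among the 3 groups. The log2 difference of ETV6_R399C was -0.18 ± 0.03 to ETV6_WT (edgeR adjusted p = 9.8e-04) and 0.10 ± 0.03 to tagBFP (edgeR adjusted p = 0.015).

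RCN3, a calcium-binding protein of the endoplasmic reticulum (chr19:49527618-49546962, forward strand), had 6.78, 7.62 and 8.08 CPM in sgERG, against 17.6, 14.99 and 17.1 CPM in sgCtrl. In the ETV6 experiment it had 1.62, 1.67 and 1.603 CPM in ETV6_R399C, 3.71, 2.67 and 2.87 CPM in ETV6_WT and 2.25, 2.51 and 2.25 CPM in tagBFP. The ETV6_R399C libraries were the lowest, and the other groups did not overlap either. RCN3 was 0.95 ± 0.17 lower on the log2 scale in ETV6_R399C than in ETV6_WT (-0.95, edgeR adjusted p = 0.0024), a call kept in 12 of 12 alternatives. Against tagBFP the value was -0.54 ± 0.17 (edgeR adjusted p = 0.025), and 6 of 12 alternatives lost that call. It did not pass without ETV6_R399C replicate 1 (-0.51), 2 (-0.56) or 3 (-0.54), nor without tagBFP replicate 2 (-0.50). ERO1B, an oxidase that helps form disulfide bonds, had 27.4, 31.2 and 24.4 CPM in sgERG, against 55.6, 51.6 and 57.4 CPM in sgCtrl. Its means of 43.0 CPM in ETV6_R399C, 43.9 CPM in ETV6_WT and 43.8 CPM in tagBFP overlapped by library.

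CAV1, the coat protein of caveolae (chr7:116524785-116561184, forward strand), had 4.59, 3.95 and 4.31 CPM in sgERG, against 7.02, 8.99 and 9.38 CPM in sgCtrl. It had 2.36, 2.16 and 3.21 CPM in ETV6_R399C, 4.82, 4.97 and 6.404 CPM in ETV6_WT and 4.85, 5.10 and 4.25 CPM in tagBFP. ETV6_WT and tagBFP overlapped, and ETV6_R399C lay below both. CAV1 fell by 0.90 ± 0.17 on the log2 scale in ETV6_R399C against tagBFP (edgeR adjusted p = 0.0016), the largest fall of the set in that contrast. Against ETV6_WT the value was -1.10 ± 0.17 (edgeR adjusted p = 0.0011), and the offset for transcript length alone of 12 alternatives ended either call. The neighbouring family member CAV2, 16.2 kb away and no member, averaged 5.58 CPM in ETV6_R399C, 7.84 CPM in ETV6_WT and 8.58 CPM in tagBFP.

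DUOX1, which makes hydrogen peroxide at membranes, had 1.86, 1.75 and 1.58 CPM in sgERG, against 6.24, 5.60 and 5.03 CPM in sgCtrl. It averaged 3.87 CPM in ETV6_R399C, 3.14 CPM in ETV6_WT and 4.34 CPM in tagBFP. Its transcripts differed between the experiments: a coding form of 4539 bases took 42.8% of the DUOX1 reads in tagBFP and 85.4% in sgCtrl, while a form of 263 bases that retains an intron took 40.2% in ETV6_R399C, 55.0% in ETV6_WT and 26.6% in tagBFP. On the scale per length DUOX1 was at 22.7 TPM in tagBFP and 2.996 TPM in sgCtrl, although its CPM was lower in tagBFP. Over the set, the leading transcript was the same in sgERG and sgCtrl for 34 of 35 genes with reads in both, and in tagBFP and sgCtrl for 30 of 35.

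The remaining genes were mostly rare. PRR29 had 3.27, 2.81 and 3.37 CPM in sgERG, against 10.8, 10.3 and 9.30 CPM in sgCtrl, and means of 27.2 CPM in ETV6_R399C, 24.7 CPM in ETV6_WT and 23.2 CPM in tagBFP. It was the single member at least 1 higher on the log2 scale in tagBFP than in sgCtrl. OTOG, a protein of the inner ear matrix, had 0.54, 0.482 and 0.37 CPM in sgERG, against 3.91, 4.06 and 4.47 CPM in sgCtrl. FGFBP2, a secreted protein known from cytotoxic lymphocytes, averaged 0.802 CPM in sgERG and 3.01 CPM in sgCtrl. MYH15, a myosin heavy chain, averaged 0.955 and 2.11 CPM in the same groups, and the zinc finger gene ZNF366 1.13 and 2.41 CPM. AC027796.3, which overlaps TRPV1 and SHPK on its own strand, had 1.78, 1.05 and 3.69 CPM in sgERG, against 5.91, 5.11 and 6.60 CPM in sgCtrl.

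For HNRNPA1L2 and BPTF few reads or a single library set the values. HNRNPA1L2, a near copy of the splicing factor gene HNRNPA1 with which it can exchange reads, had 1.19, 0.485 and 1.56 CPM in sgERG, against 1.62, 3.05 and 2.80 CPM in sgCtrl. No sgERG library reached the lowest sgCtrl library, and the edgeR adjusted p was 0.053. In ETV6_R399C it had 110, 0 and 109 reads. BPTF, a subunit of a chromatin remodelling complex, had 297 reads in sgCtrl replicate 3 and 0 in each of the other 14 libraries. Only 2 of its 19 GENCODE transcripts were among the transcripts quantified. Without sgCtrl replicate 3 it does not meet the rule.

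At each limit of the rule the genes just inside and just outside had like values. On the ERG ratio, DOCK3, PTPN22 and CSPG5 (all -0.81) lay just inside, and ZNF26 (-0.80), CYB5R2 (-0.79) and MYO5C (-0.79) just outside. On the ratio of ETV6_WT to tagBFP, FGFBP2 (-0.41), CDC42EP5 (-0.46) and RAB37 (0.46) were the last inside, and PREX1 (-0.52), CEACAM1 (-0.52) and SYNGR1 (0.53) the first outside. On the sgCtrl mean, BPTF (2.03 CPM), MYH15 (2.11 CPM) and CSPG5 (2.25 CPM) were the last inside, and CPEB2 (1.80 CPM), ATP7A (1.89 CPM) and PROM1 (1.99 CPM) the first outside.

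The contrasts with ETV6_R399C had no part in the choice of genes, although their tagBFP and ETV6_WT libraries did. The edgeR test covered 31 of the 36, and BPTF, OTOG, UNC13A, FGFBP2 and DOCK3 had too few reads. Against tagBFP, 13 rose (18.8% of all genes tested did) and 5 fell (22.1% of all). The 18 calls among 31 genes stand beside 40.9% of all genes, and 7 calls were at least 0.5 in size on the log2 scale, beside 7.44% of all. Those 7 were IL1B, RASSF4, SCN4A, RAB37, CTSG, CAV1 and RCN3. The median log2 difference of the 31 was 0.01, and -0.0011 over all genes tested. The median size of the difference, sign aside, was 0.26 in the 31 genes and 0.17 over all. With 1 library left out the rises numbered 9 to 13 and the falls 2 to 4: 2 without ETV6_R399C replicate 2, and 3 without ETV6_R399C replicate 1 or 3 or tagBFP replicate 1 or 3. With DESeq2 there was 1 fall.

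Against ETV6_WT, 8 of the 31 were higher in ETV6_R399C (9.29% of all genes were) and 4 were lower (12.1% of all), together 12 calls beside 21.4% of all genes. At least 0.5 in size were 5 of them, beside 3.78% of all: IL1B, CTSG and RASSF4 higher, CAV1 and RCN3 lower. The median size of the difference was 0.21 in the 31 genes and 0.11 over all. The offset for transcript length brought the 12 calls down to 7 (5 higher and 2 lower). The lower read level of the mutant transgene moves with every one of these differences, and its part in them was not tested.

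**Figure D3:**
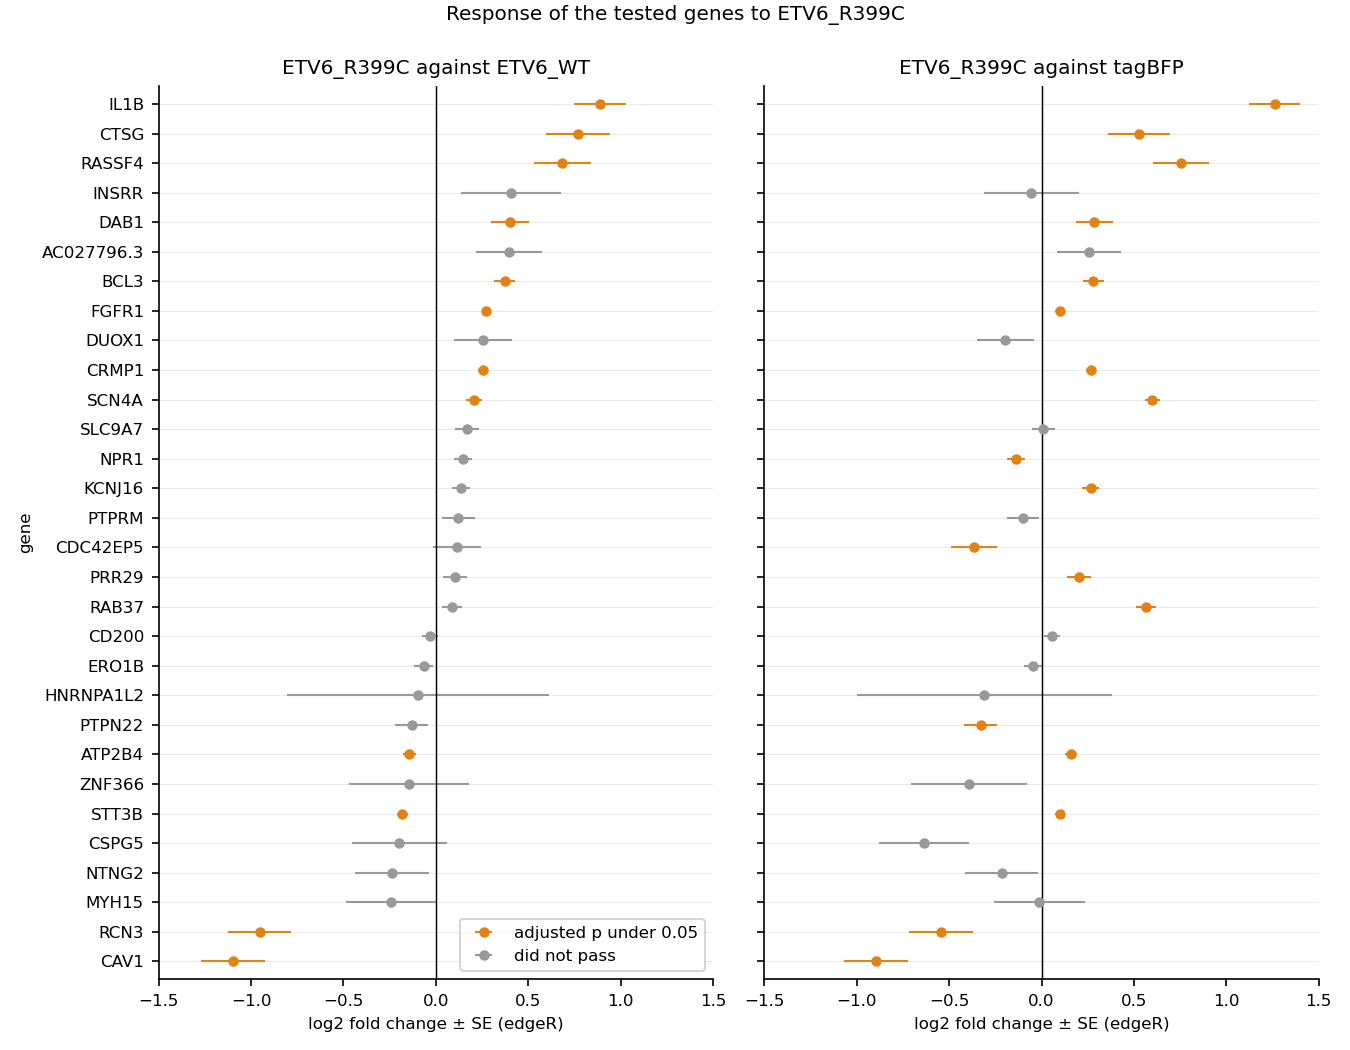
Log2 fold changes (points) with their standard errors (bars) of 30 of the 31 genes tested, for ETV6_R399C against ETV6_WT (left) and against tagBFP (right). Orange marks an edgeR adjusted p under 0.05. IL1B, CTSG and RASSF4 lie highest and RCN3 and CAV1 lowest in the left panel, and all 5 keep their direction in the right one.

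On the group means alone, 30 of the 36 genes (83.3%) stayed within 0.5 of tagBFP with ETV6_R399C, beside 93.1% of the 11070 protein-coding genes. UNC13A, IL1B, RASSF4, SCN4A, RAB37 and CAV1 were the 6 outside. The median log2 ratio was 0.00 in the set, against -0.19 in the 56 ERG-dependent genes that were lower with wild-type ETV6 and 0.58 in the 23 that were higher. Within 0.5 were 44 of those 56 and 9 of those 23. The 3 sets were split by a ratio that shares the tagBFP libraries with this one, so the values stand side by side and no test was made.

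Levels also differed between the control cells of the experiments, which differ in vector, sorting and time of induction. In tagBFP, 15 of the 36 genes (41.7%) were at least 1 lower on the log2 scale than in sgCtrl, beside 8.27% of the 11070 genes, and the median ratio was -0.78, beside 0.03. The 11070 genes met the same minimum in sgCtrl, but the members were also chosen for a lower mean in sgERG than in sgCtrl. The values are thus a description. ERG itself averaged 301 CPM in tagBFP and 521 CPM in sgCtrl, and its part in these levels was not tested. Under 0.5 CPM in tagBFP were 5 genes (BPTF, OTOG, UNC13A, FGFBP2 and DOCK3), and 9 were under 2 CPM. CTSG, RCN3, INSRR and SLC9A7 were read in tagBFP, but at 2.10, 2.34, 1.47 and 14.4 CPM, against 16.8, 16.6, 8.02 and 47.2 CPM in sgCtrl. With a minimum of 2 CPM in tagBFP as well, 27 of the 36 would remain.

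The genes lay on 17 chromosomes, with 6 each on chromosomes 1 and 17, 5 on chromosome 3 and 4 on chromosome 19. PRR29 (chr17:63998351-64004304, forward strand) and SCN4A (chr17:63938554-63972918, reverse strand) are 25.4 kb apart and the only members within 100 kb of each other. Of the genes, 3 overlap another protein-coding gene on their own strand, AC027796.3 with TRPV1 and SHPK, FGFBP2 with PROM1 and DAB1 with OMA1. A further 8 overlap one on the opposite strand, among them PRR29 with ICAM2, RASSF4 with DEPP1, DUOX1 with DUOXA1, FGFR1 with LETM2, CRMP1 with EVC, ERO1B with GPR137B and RAB37 with CD300LF. These overlaps are of whole gene spans, introns included. Whether the values of these genes hold reads of the partner was not tested.

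Protein-coding neighbours within 100 kb that were not members were looked at after the values of the set were known. In sgERG against sgCtrl, 18 of the neighbours tested (17.3%) were lower and 3 were higher, beside 7.74% and 6.89% of all genes. Among 12 neighbours that overlap a member, 6 were lower, and among the other 92, 12 (13.0%) were. PROM1, which overlaps FGFBP2, had a log2 difference of -1.53 ± 0.26, TRPV1 -0.73 ± 0.08 and DEPP1 -0.90 ± 0.15. How far reads shared with the member enter these differences was not tested. In the ETV6 experiment DEPP1 averaged 10.4 CPM in ETV6_WT and 3.20 CPM in tagBFP, while RASSF4 averaged 2.62 and 2.51 CPM.

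Near RCN3, neighbours that do not overlap it were lower too. FCGRT, the Fc receptor that recycles antibodies, lies 1.29 kb from it and averaged 34.7 CPM in sgERG, against 66.1 CPM in sgCtrl (log2 -0.95 ± 0.05, edgeR adjusted p = 1.2e-06). SLC17A7, a glutamate carrier of synaptic vesicles 85.3 kb away, averaged 10.1 CPM in sgERG, against 32.9 CPM in sgCtrl (log2 -1.72 ± 0.08, edgeR adjusted p = 2.3e-07). With wild-type ETV6 these neighbours moved apart: the log2 ratio of means to tagBFP was 0.65 for FCGRT, -1.63 for SLC17A7 and 0.34 for RCN3. Around PTPN22, PHTF1 (log2 -0.51 ± 0.08) and RSBN1 (-0.40 ± 0.05) were lower with sgERG, and FLT3LG, 41.4 kb from RCN3, was higher (0.45 ± 0.08). ICAM2, which overlaps PRR29, was lower (62.3 CPM in sgERG, 78.9 CPM in sgCtrl, log2 -0.36 ± 0.06). The B-cell receptor gene CD79B, 6.2 kb from SCN4A, averaged 296 CPM in sgERG and 327 CPM in sgCtrl and did not pass (edgeR adjusted p = 0.11).

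**Figure D4:**
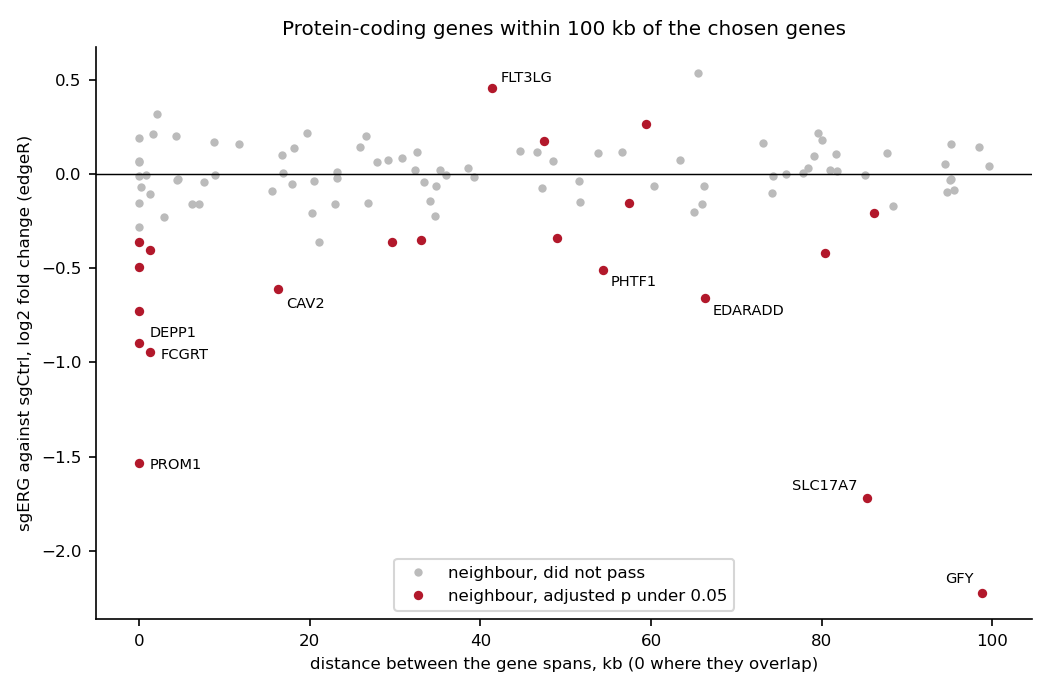
Each point is a protein-coding gene that is no member, within 100 kb of a member, with the distance between the spans in kb on the x axis (0 where they overlap) and its edgeR log2 fold change for sgERG against sgCtrl on the y axis. Red marks an adjusted p under 0.05. A single gene is not shown. PROM1 lies lowest at distance 0 among those shown, and SLC17A7 and GFY lie low near 85.3 and 98.8 kb.

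Gene lists give the setting of the set in sgERG against sgCtrl, with members left out of the counts. Each count stands beside 7.74% lower and 6.89% higher over all genes tested. Of 15 stem and progenitor regulators tested with edgeR, 8 were lower and none was higher, with a median log2 of -0.36 beside 0.00 over all genes. MN1, RUNX1, FLT3 and LMO2 were the clearest (log2 -1.23, -0.47, -0.74 and -0.70). Reads of RUNX1 can include those of the ETV6::RUNX1 fusion, which were not told apart here. Of 12 genes known as ERG targets in endothelium, 4 were lower (NRP1, ICAM2, ESAM and DLL4) and none was higher, with a median of -0.24, and of 11 known from prostate cancer 2 were lower (ARHGDIB and AMPD3), with a median of 0.01. In the ETS family itself 5 of 20 were higher and 5 lower, and the 5 lower include ERG, the target of the guide. ETS2 was 1.09 and SPIB 1.68 higher on the log2 scale, while ERG (-2.32) and ELK3 (-0.81) were lower. Among genes of pre-B-cell receptor signalling other than PTPN22, 6 of 23 were higher and 8 lower. Among solute carriers other than SLC9A7, 7 of 22 were lower and none was higher, led by SLC51A (-2.12) and SLC7A11 (-1.23). The limit of 0.5 on the ratio of ETV6_WT to tagBFP was not applied to these lists. That log2 ratio of means was -2.299 for SLC51A, -1.06 for SLC7A11, -1.497 for NRP1, -1.0097 for AMPD3 and -0.6999 for MN1. It was 0.795 for ELK3 and 0.806 for SPIB. The other genes named from these lists stayed within 0.5.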

How the data were processed

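Total RNA, per the labels, was sequenced in 15 libraries with 22040338 to 52481351 reads on transcripts. Members with few reads are measured least precisely, and standard errors come from the fits of 9 or 6 libraries. The authors quantified transcripts with Salmon 0.11.3 on hg38, per the submitters' processing notes, and deposited per library an estimated count and TPM for each of 167268 transcripts, per the file headers. The deposited estimated counts are not scaled between libraries, and TPM is scaled within each library by effective length. No source used here states the strand setting, bias options or read filters. The labels name a kit that keeps the RNA strand.

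Transcripts were matched to GENCODE 29 by identifier (90.3%), and the unmatched ones, which held 6.67% to 7.56% of each library, were dropped. Estimated counts were summed per gene and, for tests, rounded. Groups were taken from the labels. Tests were quasi-likelihood fits in edgeR 4.0.16 (R 4.3.3), scaled by TMM and filtered by filterByExpr, with Benjamini-Hochberg adjustment over all genes at 0.05: 1 fit of 9 libraries (14242 genes) and 1 of 6 (13464 genes). A standard error is the log2 fold change divided by the square root of F. The fits were also run on counts simulated from their own dispersions, which does not test their error rate on the real libraries. DESeq2 1.42.0, other scaling and filters, a length offset, a replicate block and left-out libraries were alternatives. Replicate pairs differed by more than sampling noise (chi-square for each degree of freedom 2.89 to 14.7), so each library counted as 1.

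The members, the 25 gene lists and the tests were chosen with earlier results of these data known. Named in detail were the 12 members with the lowest ERG ratio among those with at least 5 CPM in sgCtrl and no overlap of the groups, up to 5 on each list, the 5 largest rises and falls in each ETV6_R399C contrast, genes at the thresholds, the 5 highest in TPM, and ETV6 and ERG. The other members and the neighbouring genes were named after their values were seen. A member and a neighbouring gene are not reported here. From the lists described, up to 4 genes with the smallest p were named.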

Additional observations from a re-analysis of the deposited data

Results flagged for a closer look

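In 5 of the genes the 2 forms of ETV6 differed from each other by at least 0.5 on the log2 scale in a direct edgeR test of ETV6_R399C against ETV6_WT. IL1B (0.89), CTSG (0.77) and RASSF4 (0.69) were higher with ETV6_R399C, in 3 of 3 libraries each. CAV1 (-1.10) and RCN3 (-0.95) were lower with ETV6_R399C, again in 3 of 3 libraries each. The highest level of these 5 genes in any library of that experiment was 6.404 CPM, for CAV1 in ETV6_WT, and they had 34 to 153 reads per library.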

How the results depend on the processing

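The set depends on its thresholds: 18 genes had an ERG ratio of at most -1 and 83 one of at most -0.6. Leaving out 1 of the 12 libraries gave 36 to 42 genes, of which 32 to 36 were shared. With TPM in place of CPM 29 genes met the rule, 20 of them shared.

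An offset for transcript length lowered the counts of genes called, with 1357 in sgERG against sgCtrl. ETV6_R399C against tagBFP gave 3427 genes, with 5 members higher and 2 lower. ETV6_R399C against ETV6_WT gave 1235 genes, with 5 members higher and 2 lower, and ETV6_WT against tagBFP gave 2913 genes. The members lower in ETV6_R399C than in tagBFP numbered 3 with no filter on low counts and 1 with DESeq2. With 1 library left out, members called against tagBFP numbered 9 to 13 higher and 2 to 4 lower, and against ETV6_WT 7 to 10 higher and 3 to 5 lower. Genes called over the whole table then ran over 4865 to 5593 against tagBFP, 2008 to 3110 against ETV6_WT, 4322 to 4813 for ETV6_WT against tagBFP and 1160 to 2302 for sgERG against sgCtrl. The lowest were 1160 without sgCtrl replicate 1 and 1162 without sgCtrl replicate 3, and 2008 without ETV6_R399C replicate 1 and 2010 without ETV6_WT replicate 2.

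Libraries of the same number did not vary together (r of -0.24 to 0.21). A replicate block gave 5656 calls for ETV6_R399C against tagBFP, 2973 for ETV6_R399C against ETV6_WT, 5086 for ETV6_WT against tagBFP and 1536 for sgERG against sgCtrl, with 12 members higher and 4 lower against tagBFP and 8 and 4 against ETV6_WT. Over the members named in the ETV6_R399C contrasts, 188 of 228 recomputed values kept their call, 40 lost it and none changed sign; the cause was not tested. Members under about 5 CPM are limited by depth.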
